A study of Rattus norvegicus with 6 samples.

Results

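A set of 10 genes of pericellular proteolysis was followed in LPS-stimulated microglia with and without siponimod: the matrix metalloproteinase genes Mmp3, Mmp9, Mmp12, Mmp13 and Mmp14, the inhibitor gene Timp1, the membrane protease genes Adam8 and Adam17, the urokinase gene Plau and its receptor gene Plaur. They were chosen by name, and all 10 of 10 are among the 23139 genes of the count tables. Primary microglia were shaken off mixed cortical cultures of Wistar rats at postnatal day 1, purified over CD11b/c beads and stimulated with 100 ng/mL lipopolysaccharide (LPS, a bacterial cell wall component that activates microglia). One group received LPS with the solvent DMSO (LPS) and the other LPS with 50 µM siponimod (LPS/siponimod), with 3 libraries each. Every value therefore compares cells that had all seen LPS, and unstimulated cells were not analysed here. For the sequencing the study refers to the scheme of its other experiments, and how long the sequenced cells were stimulated is not stated separately. It calls the replicates biological and gives n as the number of independent experiments. What separates the sequenced replicates is not described further, so that p-values measure the spread between these libraries. Total counts were 39484979, 38301365 and 38080379 in LPS replicates 1, 2 and 3, and 46643859, 43336006 and 38857441 in LPS/siponimod replicates 1, 2 and 3.

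Matrix metalloproteinases (MMPs) are zinc enzymes that are secreted or anchored in the membrane as inactive precursors, are activated by removal of a propeptide, and cut collagens, laminins, proteoglycans and other matrix proteins. Tissue inhibitors of metalloproteinases (TIMPs) block the active site. ADAM17 belongs to a related family and releases membrane-bound proteins such as tumor necrosis factor from the cell surface. Urokinase, bound to its receptor, converts plasminogen to plasmin, which degrades fibrin and can activate MMP precursors. Activated microglia are a known source of several of these enzymes in the brain, where they are linked to matrix remodelling, opening of the blood-brain barrier and cell migration.

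None of the 10 genes passed the threshold for a change with LPS/siponimod when the condition was the only term (edgeR's quasi-likelihood test, adjusted p of at most 0.05 over 11977 genes and a fold change of at least 1.5). Of all genes tested, 25.3% passed it, 13.6% higher and 11.7% lower. All 10 genes had enough counts to be tested. At an unadjusted p below 0.05 there were 4 of them, Plaur, Mmp12, Adam17 and Adam8, against 43.7% of all genes tested, and the smallest adjusted p was 0.0542 (Plaur). With the replicate number added as a block, the quasi-likelihood test called Plaur as higher (adjusted p = 0.00676) and none of the others, in a fit that called 34% of all genes. DESeq2 and edgeR's likelihood ratio test each called Mmp12 and Plaur as higher, in fits that called 32.5% and 29.8% of all genes, and limma-voom called Plaur, where it called 25.9% of all genes. Fitted log2 fold changes (FC, given below with their standard errors, SE) were positive for 4 genes and negative for 6, with a median of -0.53 against -0.021 over all genes tested. Normalised read counts (CPM) of the groups did not overlap for Plaur, Adam17 and Adam8, 3 of 10 genes, where 49.3% of all genes tested did not overlap. In same-numbered pairs of libraries 2 genes were higher with LPS/siponimod in all 3 pairs and 4 were lower in all 3, while 35.4% of all genes tested were higher and 35.4% lower in all 3.

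**Figure D1:**
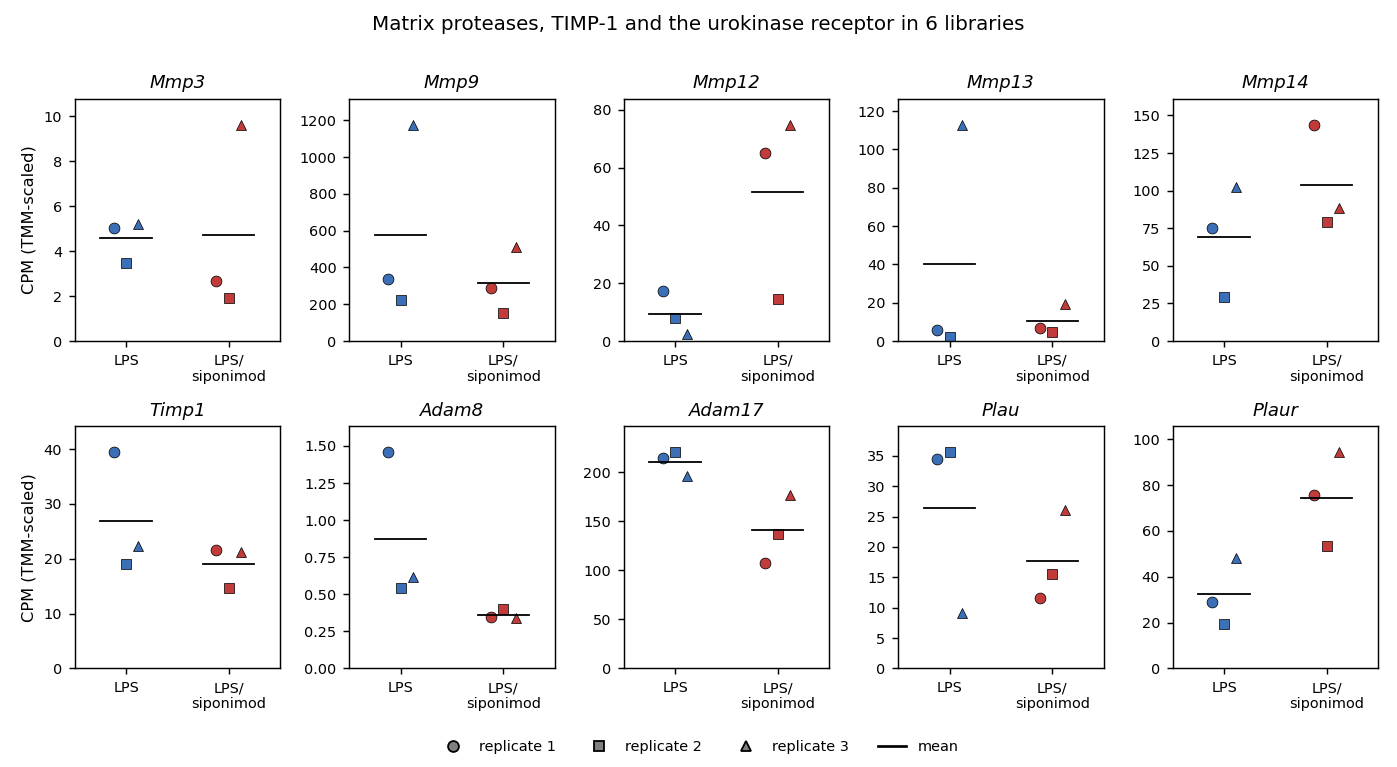
Normalised read counts (CPM, vertical axes from 0) of the 10 genes in each of the 6 libraries, LPS in blue and LPS/siponimod in red, with the replicate number as symbol and the group mean as a line. Plaur, Adam17 and Adam8 separate the groups, Mmp12 nearly does, and Mmp9 and Mmp13 are highest in LPS replicate 3.

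LPS replicate 3 stood apart from the other libraries of its group, and several values below depend on it. Its log2 CPM correlated at 0.935 and 0.945 with those of LPS replicates 1 and 2, which correlated with each other at 0.983. It held transcripts of other glia. Olig1, a transcription factor gene of the oligodendrocyte lineage, had 1, 5 and 515 counts in the LPS libraries and 2, 3 and 17 with LPS/siponimod. Pdgfra, a receptor gene of oligodendrocyte precursors, had 5, 4 and 284 counts against 1, 4 and 81, and the astrocyte gene Gfap 1, 2 and 88 against 0, 0 and 1. Both libraries numbered 3 therefore held more Pdgfra than the others, and LPS replicate 3 by far the most Olig1 and Gfap. Over the 8 oligodendroglial markers, summed CPM came to 5.34, 5.37 and 36.0 for LPS against 11.4, 10.3 and 22.6 for LPS/siponimod. In LPS replicate 3 Olig1 led (13.9 CPM, with Mbp at 2.26), whereas Mbp led in the other 5 libraries, and Mog was at 0 in 5 of the 6. The 8 astrocyte markers summed to 48.4, 24.2 and 25 CPM against 29.3, 28.8 and 59.6, mostly from Slc1a3.

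Summed over 12 markers, defining genes of microglia were abundant in all 6 libraries. The sums were 8232, 7097 and 5069 CPM with LPS and 4324, 5197 and 3434 CPM with LPS/siponimod. Not all 12 were abundant. Cx3cr1 was at 1.86, 5.24 and 0.942 CPM with LPS and 0.0646, 0.470 and 0.0976 CPM with LPS/siponimod. P2ry12 was at 15.8, 15.8 and 1.16 CPM with LPS and 0.387, 2.37 and 0.317 CPM with LPS/siponimod. Csf1r was the most abundant in LPS replicates 1 and 2 and LPS/siponimod replicate 2, Itgam in LPS replicate 3 and Cd68 in LPS/siponimod replicates 1 and 3. Of these 12, 3 fell, where 11.7% of all genes tested did. They were Aif1 (log2 FC -1.88 with SE 0.40, adjusted p = 0.0212), Itgam (-0.87, SE 0.14, adjusted p = 0.0112) and Cx3cr1 (-3.65, SE 1.00, adjusted p = 0.0392, all edgeR quasi-likelihood test). Aif1 and Itgam had adjusted p of 0.0982 and 0.0618 without LPS/siponimod replicate 1, and without LPS replicate 2 that of Cx3cr1 was 0.147. Of the 6 fits that left out a single library, Aif1 and Cx3cr1 passed in 2 and Itgam in 3. In bulk RNA, fewer cells of a type and less RNA per cell cannot be told apart. Endothelial markers summed to 157, 203 and 82.2 CPM against 37.5, 80.4 and 26.4. Cdh5 led except in LPS replicate 2, where Pecam1 did (104 CPM against 97.1), and Kdr was at 0 in all libraries. The neutrophil genes Mpo, Elane and Ltf were at 0 in all libraries, and the 7 genes of that list summed to 10.2, 26.5 and 7.40 CPM with LPS and 0.689, 2.42 and 0.683 CPM with LPS/siponimod. Cxcr2 led this list except in LPS/siponimod replicates 1 and 3, where Camp did (0.495 and 0.415 CPM). Neuronal markers summed to 1.70, 1.06 and 11.4 CPM with LPS and to 6.39, 9.28 and 17.1 CPM with LPS/siponimod, with Tubb3 leading. For fibroblasts and mural cells the sums were 6.05, 4.78 and 3.98 CPM against 11.9, 4.64 and 8.68 CPM, and Rgs5 was at 0. Col1a1 led this list in the LPS libraries and in LPS/siponimod replicate 2, and Dcn in LPS/siponimod replicates 1 and 3 (9.81 and 4.34 CPM). Of these other lists, Mbp, the neuronal gene Snap25 and Dcn rose, and Aldoc (astrocytes) and S100a8 (neutrophils) fell. Snap25 passed in all 6 fits that left out 1 library, Mbp, Dcn and S100a8 in 3 of 6 and Aldoc in 1. The part of these cell types in the protease values was not tested.

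**Figure D2:**
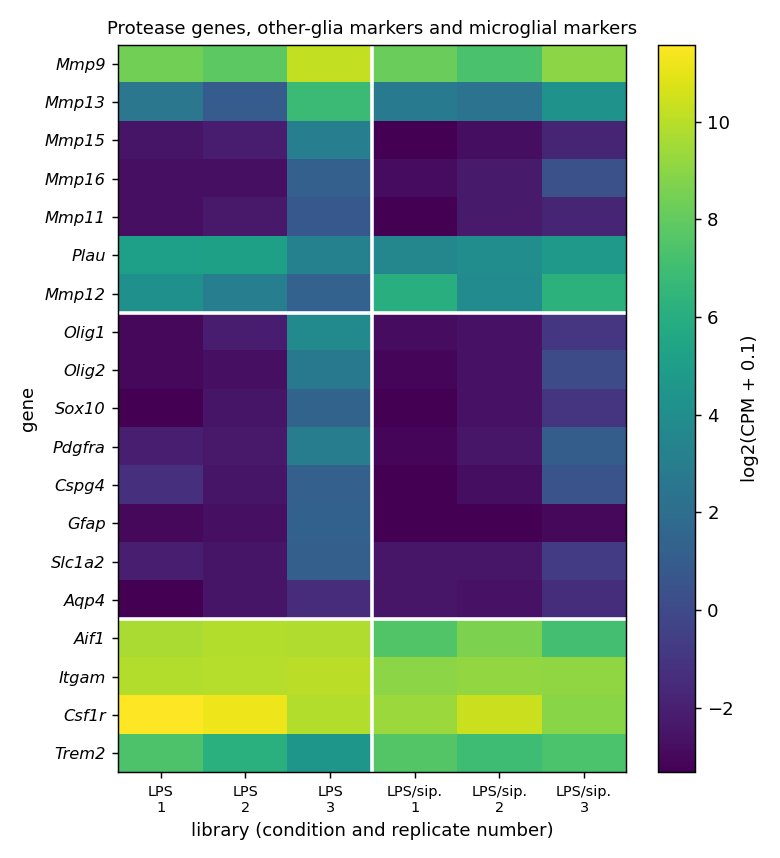
Heat map of log2(CPM + 0.1) for protease genes (top block), markers of oligodendroglia and astrocytes (middle) and of microglia (bottom) in the 6 libraries, LPS replicates 1 to 3 on the left and LPS/siponimod (LPS/sip.) 1 to 3 on the right. Mmp9, Mmp13 and Mmp15 and most of the markers of other glia are brightest in LPS replicate 3, where Plau and Mmp12 are darkest.

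Mmp12, which encodes macrophage elastase, had the largest fitted difference of the 10 genes. Its counts in replicates 1 to 3 were 644, 310 and 93 under LPS and 3016, 654 and 3064 under LPS/siponimod. The mean level was 9.31 ± 7.52 CPM against 51.4 ± 32.2 CPM (SD, n = 3 each). LPS/siponimod replicates 1 and 3 lay far above all LPS libraries, whereas LPS/siponimod replicate 2, at 14.7 CPM, lay below LPS replicate 1 at 17.4 CPM, so that the groups overlapped in this one place. The log2 FC was 2.47 (SE 0.85, a 5.52-fold difference, quasi-likelihood adjusted p = 0.0738). Within pairs the differences of log2 CPM were 1.90, 0.86 and 4.87. The third of these rests on the low value of LPS replicate 3. Without LPS replicate 3 the log2 FC was 2.02 (adjusted p = 0.0959), without both libraries numbered 3 it was 1.65 (adjusted p = 0.187), and without LPS/siponimod replicate 2 it was 2.90 and passed the threshold (adjusted p = 0.0485), in a fit that called 23.4% of all genes.

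Mmp3 (stromelysin-1, which cuts proteoglycans and activates other MMP precursors) had few reads, with 187, 134 and 193 counts against 123, 85 and 394. LPS/siponimod held both the 2 lowest libraries and the highest one. Its log2 FC was 0.04 (SE 0.63, adjusted p = 0.965), and its direction turned when LPS/siponimod replicate 3 was left out (-1.0, adjusted p = 0.108).

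Mmp13 (collagenase-3, which cleaves fibrillar collagens) varied more among the LPS libraries than any other of the 10 genes. Its counts in replicates 1 to 3 were 222, 74 and 4191 under LPS and 307, 220 and 792 under LPS/siponimod. The highest LPS library exceeded the lowest 58.7-fold in CPM, against 3.92-fold among the LPS/siponimod libraries. The log2 FC of -1.97 had a SE of 1.45 (adjusted p = 0.333). Without LPS replicate 3 the sign turned and the log2 FC was 1.39 (adjusted p = 0.215). Pairs 1 and 2 differed by 0.14 and 1.34 and pair 3 by -2.54 on the log2 scale, and no direction can be given.

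Mmp9 encodes gelatinase B, which cleaves denatured collagen and basement membrane collagen. Its counts in replicates 1 to 3 were 12461, 8655 and 43641 under LPS and 13283, 6888 and 20954 under LPS/siponimod. The mean was 579 ± 519 CPM against 317 ± 180 CPM (SD, n = 3 each), and the groups overlapped. In both groups the library numbered 3 was the highest and that numbered 2 the lowest. All 3 pairs were lower with LPS/siponimod, with differences of -0.23, -0.54 and -1.20 on the log2 scale. Its log2 FC was -0.87 (SE 0.72, adjusted p = 0.391) and, with the replicate number as a block, -0.66 (SE 0.23, adjusted p = 0.0765). Without LPS replicate 3 the unpaired value turned to 0.18 (adjusted p = 0.801), and without both libraries numbered 3 it was -0.35 (adjusted p = 0.52).

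Mmp14 encodes the membrane-type protease MT1-MMP, which activates the gelatinase A precursor at the cell surface. It had 2785, 1140 and 3793 counts in the LPS libraries and 6677, 3536 and 3621 in those of LPS/siponimod, or 68.9 ± 36.7 and 104 ± 34.9 CPM (SD, n = 3 each). LPS/siponimod replicate 1 was the highest library and LPS replicate 2 the lowest, and the groups overlapped. A log2 FC of 0.59 was fitted (SE 0.47, adjusted p = 0.368), with values from 0.24 (without LPS replicate 2, adjusted p = 0.642) to 0.99 (without LPS replicate 3, adjusted p = 0.153) when single libraries were left out.

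In the gene table of RefSeq, Mmp13, Mmp12, Mmp1b, Mmp3, Mmp1, Mmp10, Mmp8, Mmp27, Mmp20 and Mmp7 lie side by side on chromosome 8 in this order, with no other protein-coding gene between them. The genes of this run were used very unequally. Mmp1b and Mmp27 had no count in any library, and Mmp1, Mmp8 and Mmp20 each had 1 count in 1 LPS/siponimod library and 0 elsewhere. Mmp10 (stromelysin-2, close to Mmp3 in sequence) had 3, 0 and 0 counts in the LPS libraries and 54, 28 and 141 in those of LPS/siponimod. Mmp10 rose, with 223 reads over the LPS/siponimod group against 3 over the LPS group, a ratio per depth of 63.4 with an exact 95% interval of 21.4 to 310 that covers counting error only (quasi-likelihood adjusted p = 0.0209). It stayed past the threshold without both libraries numbered 3 (adjusted p = 0.0491) and in 3 of the 6 fits that left out a single library, with the largest adjusted p without LPS replicate 2 (0.0935). All 3 reads of the LPS group came from LPS replicate 1, and the log2 FC of 5.87 ran from 4.92 to 9.19 in these 6 fits. Mmp7 (matrilysin) had 35, 11 and 5 counts against 118, 99 and 49, with no overlap (log2 FC 2.12 with SE 0.74, adjusted p = 0.0754), and passed with the replicate block (log2 FC 2.38, adjusted p = 0.0181). Mmp10 met the count filter (minimum count 10) through its LPS/siponimod libraries alone, and Mmp7 would not have met it by its LPS libraries alone. A fall of Mmp10 could therefore not have been called, and its rise is not independent of the filter.

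Many MMP promoters are known to carry a site for AP-1, the dimer of Fos and Jun proteins, close to the transcription start. RefSeq promoters (250 bases before to 50 after the start, build GRCr8) were given for 8 of the 10 genes, all except Mmp9 and Mmp14. The AP-1 letters TGANTCA, read on both strands, occur in 4 of these 8, Mmp3, Mmp12, Mmp13 and Plaur, and in 7.33% of all 33469 promoters of the table. They do not occur in the windows of Timp1, Adam8, Adam17 and Plau. Among 10 other named genes with a promoter there, 3 hold them, Mmp10 and Serpinb2, which rose, and Tnfrsf1b, which fell. The following stretches run from base -130 to base -31 before the start. They are shown for Mmp12, Mmp3, Mmp13, Mmp10 and Plaur, which were picked because they hold the AP-1 letters, in capitals. The letters read TGAGTCA in Mmp12, Mmp3 and Mmp10, and TGACTCA, its reverse complement, in Mmp13 and Plaur. Values separated the conditions in some of these genes and not in others. The promoters of Mmp7, Mmp8, Mmp1, Mmp1b, Mmp20 and Mmp27 of the same run were not examined individually.
Mmp12, chr8:12866522-12866621, plus strand: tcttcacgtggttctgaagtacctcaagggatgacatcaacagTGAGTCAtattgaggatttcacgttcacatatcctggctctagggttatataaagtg
Mmp3, chr8:12925151-12925250, plus strand: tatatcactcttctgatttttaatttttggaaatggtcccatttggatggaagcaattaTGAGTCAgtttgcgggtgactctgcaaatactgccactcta
Mmp13, chr8:12782699-12782798, plus strand: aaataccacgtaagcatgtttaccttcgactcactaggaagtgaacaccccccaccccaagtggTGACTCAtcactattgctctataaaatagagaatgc
Mmp10, chr8:12974577-12974676, plus strand: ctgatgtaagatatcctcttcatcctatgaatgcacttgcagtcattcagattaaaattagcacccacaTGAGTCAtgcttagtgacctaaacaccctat
Plaur, chr1:89181233-89181332, plus strand: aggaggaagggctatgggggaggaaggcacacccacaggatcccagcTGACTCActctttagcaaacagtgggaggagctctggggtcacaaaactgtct
The letters begin at base -87 in Mmp12, -83 in Plaur, -71 in Mmp3, -66 in Mmp13 and -61 in Mmp10. The letters TGATGNAA, the core of the element bound by ATF4 with C/EBP proteins, occur in none of the 8 promoters, but in that of Mmp10 (from base -129, apart from the AP-1 letters) and in 3.98% of all promoters. The NF-kB consensus occurs in none of the 8 and in 7.51% of all. A match is a description of the letters and not evidence of binding.

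Timp1, the inducible inhibitor of most secreted MMPs, had 1461, 734 and 832 counts in the LPS libraries and 1005, 651 and 868 in those of LPS/siponimod. The levels were 27.0 ± 10.9 and 19.1 ± 3.94 CPM (SD, n = 3 each). Only LPS replicate 1 stood above the other 5 libraries, which lay between 14.6 and 22.4 CPM. The log2 FC was -0.49 (SE 0.31, adjusted p = 0.269), and -0.10 without LPS replicate 1. Timp1 overlaps the gene Syn1 in the RefSeq table, and since the use of strand in counting is not stated, reads of the overlap cannot be told apart. The same holds for Plat with Ikbkb, Mmp24 with Mmp24os, Il6r with She and Tnfrsf1b with a gene without a symbol, and Adam8, Adam17, Plau, Furin and Mmp17 overlap genes of noncoding RNA. Syn1 itself had between 17 and 287 counts.

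The balance of enzyme and inhibitor was described by the ratio of their counts within each library, in which depth cancels. Mmp12 gave 0.441, 0.422 and 0.112 counts per Timp1 count with LPS and 3.00, 1.00 and 3.53 with LPS/siponimod. This was the only ratio of 6 whose groups did not overlap (7.96-fold higher, two-sided exact permutation p = 0.1, the smallest that 3 against 3 libraries allow, and 0.6 adjusted over 6 ratios). Mmp14 gave 1.91, 1.55 and 4.56 counts per Timp1 count against 6.64, 5.43 and 4.17 (exact p = 0.2). For Mmp9 the ratios were 8.53, 11.8 and 52.5 against 13.2, 10.6 and 24.1 (exact p = 0.9), and those of Mmp3 and Mmp13 overlapped as well (exact p = 0.9 and 1.0). No ratio passed 0.05, which this design cannot reach.

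Adam17, which encodes the tumor necrosis factor converting enzyme, had 7949, 8482 and 7300 counts in the LPS libraries and 5006, 6114 and 7261 in those of LPS/siponimod. It was the steadiest of the 10 genes in the LPS group, at 210 ± 12.4 CPM against 141 ± 34.8 CPM with LPS/siponimod (SD, n = 3 each). All LPS libraries lay above all LPS/siponimod libraries, although LPS/siponimod replicate 3, at 177 CPM, came close to LPS replicate 3 at 196 CPM. The log2 FC was -0.58 (SE 0.20, adjusted p = 0.0728), just short of the fold change of 1.5 as well. Without both libraries numbered 3 it was -0.83 and passed (adjusted p = 0.0458), in a fit that called 19.3% of all genes and, of the 10, also Plau and Plaur. Adam8, a metalloproteinase gene of myeloid cells, had few reads, with 54, 21 and 23 counts against 16, 18 and 14. All LPS/siponimod libraries were below all LPS libraries, LPS replicate 1 standing out upward (log2 FC -1.26 with SE 0.49, adjusted p = 0.10). Without that library the log2 FC was -0.66 (adjusted p = 0.388).

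Of 9 tested genes for activation or transport of proteases, 3 rose and 1 fell, with a median log2 FC of -0.08, against 13.6% and 11.7% of all genes. Rhbdf2 encodes iRhom2, the carrier that brings ADAM17 to the cell surface in myeloid cells, and rose from a mean of 98.3 ± 45.9 to 211 ± 14.2 CPM (mean ± SD of 3 libraries, log2 FC 1.10 with SE 0.32, adjusted p = 0.0466, quasi-likelihood test). Its counts were 2824, 2606 and 5613 against 10408, 8746 and 8765, and it passed in 1 of the 6 fits that left out a library (largest adjusted p = 0.147, without LPS/siponimod replicate 1). Rhbdf1, the gene of the related iRhom1, had 46, 54 and 82 counts against 23, 33 and 78 (log2 FC -0.63 with SE 0.57, adjusted p = 0.429). Frmd8, whose product stabilises the iRhom-ADAM17 complex, rose from a mean of 141 ± 29.2 to 261 ± 7.75 CPM (log2 FC 0.89 with SE 0.17, adjusted p = 0.0171), and Furin, a convertase that removes the propeptide of ADAM17 and of membrane-type MMPs, from 147 ± 36.7 to 362 ± 21.7 CPM (log2 FC 1.30 with SE 0.21, adjusted p = 0.0106). For Rhbdf2, Frmd8 and Furin the LPS/siponimod libraries lay close together and above every LPS library. Tspan14, a tetraspanin gene of the group that escorts ADAM10, fell (71.9 ± 18.1 to 31.2 ± 8.44 CPM, log2 FC -1.21 with SE 0.26, adjusted p = 0.0221). Adam10 itself had a log2 FC of 0.34 (adjusted p = 0.0998). Of the fits without 1 library, Furin passed in 5 of 6, Frmd8 in 3 and Tspan14 in 2, with largest adjusted p of 0.0532 (without LPS replicate 2), 0.0773 and 0.101 (both without LPS/siponimod replicate 1).

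Among 14 tested genes whose products ADAM17 can release, 1 rose and 2 fell (median log2 FC -0.58), a share near the 25.3% called among all genes. Ereg (the growth factor epiregulin) had 22, 18 and 328 counts in the LPS libraries and 2985, 2770 and 2962 in those of LPS/siponimod (log2 FC 4.33 with SE 1.16, adjusted p = 0.0372). Without both libraries numbered 3 its log2 FC was 6.89 (adjusted p = 0.008), but it passed in only 1 of the 6 fits without a single library (largest adjusted p = 0.114, without LPS/siponimod replicate 1). Il6r fell from 124 ± 48.1 to 25.2 ± 13.4 CPM (log2 FC -2.30, adjusted p = 0.0183) and Tnfrsf1b, a tumor necrosis factor receptor gene, from 1474 ± 460 to 671 ± 115 CPM (log2 FC -1.14, adjusted p = 0.0291). Without both libraries numbered 3 neither passed (adjusted p = 0.0716 and 0.0783), and they passed in 3 and 2 of the 6 fits without a single library (largest adjusted p = 0.0719, without LPS/siponimod replicate 3, and 0.116, without LPS/siponimod replicate 1). Tnf counts of 2783, 5994 and 21114 against 4083, 8390 and 5638 overlapped (log2 FC -0.95 with SE 0.74, adjusted p = 0.358), and without LPS replicate 3 the sign turned (0.26, adjusted p = 0.658).

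Plaur, which encodes the urokinase receptor, had the smallest p-value of the 10 genes. Its counts in replicates 1 to 3 were 1077, 754 and 1797 under LPS and 3518, 2388 and 3866 under LPS/siponimod. The level was 32.3 ± 14.7 CPM with LPS and 74.5 ± 20.4 CPM with LPS/siponimod (SD, n = 3 each). The lowest LPS/siponimod library (53.5 CPM) was above the highest LPS library (48.4 CPM), and the differences within pairs were even, at 1.38, 1.45 and 0.96 on the log2 scale. Fitted over all libraries, the log2 FC was 1.20 (SE 0.37, a 2.30-fold difference, adjusted p = 0.0542). With the replicate number as a block it was 1.26 with a SE of 0.14, and Plaur passed (adjusted p = 0.00676), in a fit that called 34% of all genes tested. Without both libraries numbered 3 it passed as well (log2 FC 1.41, adjusted p = 0.0408), and without LPS replicate 3 alone (1.62, adjusted p = 0.0197), where 30.3% of all genes passed. In the other 5 fits without a single library it did not pass (adjusted p from 0.0568 to 0.155).

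Plau is the gene of urokinase itself. Its counts in replicates 1 to 3 were 1280, 1371 and 339 under LPS and 538, 696 and 1070 under LPS/siponimod, or 26.4 ± 15.0 and 17.8 ± 7.50 CPM (SD, n = 3 each). Plau was lower with LPS/siponimod in pairs 1 and 2 (-1.57 and -1.19 on the log2 scale) and higher in pair 3 (1.51), LPS replicate 3 being the lowest library of all. Over all 6 libraries the log2 FC was -0.57 (SE 0.55, adjusted p = 0.461), and without both libraries numbered 3 it was -1.36 (SE 0.19, adjusted p = 0.0331). The ratio of Plau to Plaur counts was 1.19, 1.82 and 0.189 for LPS against 0.153, 0.291 and 0.277 for LPS/siponimod. LPS replicates 1 and 2 thus held more Plau than Plaur reads and the other 4 libraries fewer (two-sided exact permutation p = 0.3 for the difference between conditions, 0.6 adjusted over 6 ratios).

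**Figure D3:**
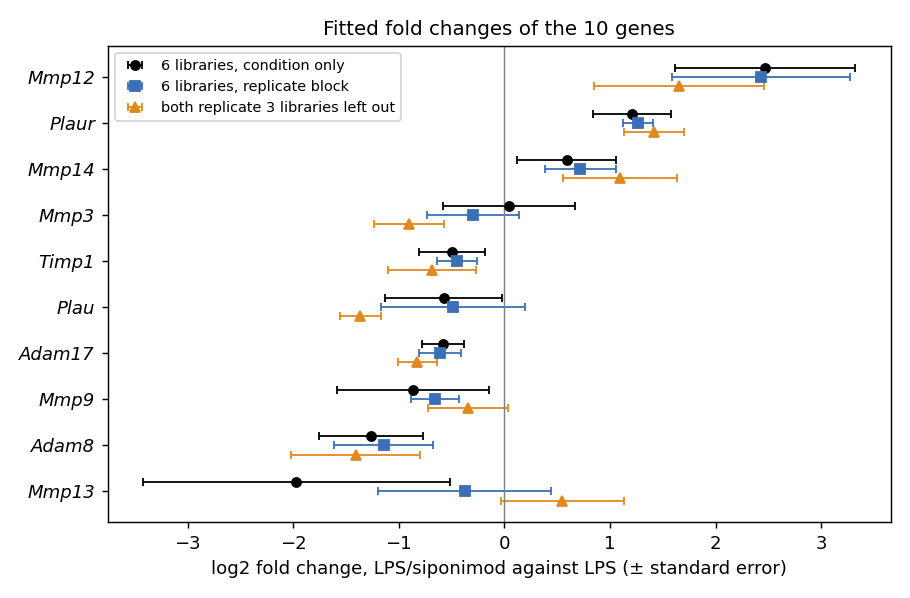
Fitted log2 fold changes of LPS/siponimod against LPS with their standard errors (horizontal axis) for the 10 genes, in order of the value over all 6 libraries, from 3 fits: condition only, with the replicate number as a block, and without both libraries numbered 3. Plaur lies between 1.20 and 1.41 in all 3, with standard errors of 0.37, 0.14 and 0.28 in this order, and Mmp13 changes sign.

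Of the wider plasminogen system 10 genes were tested, of which 4 rose and none fell (median log2 FC 0.78), where 13.6% of all genes rose and 11.7% fell. Serpinb2 encodes plasminogen activator inhibitor-2, which inhibits urokinase. It had 49, 31 and 196 counts in the LPS libraries and 8326, 2610 and 5319 in those of LPS/siponimod, and rose from a mean of 2.47 ± 2.45 to 122 ± 60.7 CPM (mean ± SD of 3 libraries, log2 FC 5.63 with SE 0.88, adjusted p = 0.0101, quasi-likelihood test). It remained past the threshold in all 6 fits that left out a library. S100a10 and Anxa2 encode the subunits of a plasminogen-binding complex at the cell surface and rose from a mean of 52.7 ± 33.8 to 176 ± 37.2 CPM (log2 FC 1.74 with SE 0.45, adjusted p = 0.0352) and from 210 ± 65.3 to 504 ± 126 CPM (log2 FC 1.27 with SE 0.30, adjusted p = 0.027). Their groups did not overlap, but without both libraries numbered 3 neither passed (adjusted p = 0.119 and 0.107), nor without LPS/siponimod replicate 1 (0.125 and 0.101). S100a10 passed in only 1 and Anxa2 in 2 of the 6 fits that left out a single library. Serpinf2, the gene of the plasmin inhibitor alpha-2-antiplasmin, also rose (129, 89 and 84 counts against 477, 273 and 408, log2 FC 1.71 with SE 0.30, adjusted p = 0.0134). It passed in 3 of the 6 fits that left out a single library (largest adjusted p = 0.0651, without LPS replicate 2). Plat, the gene of tissue plasminogen activator, had 35, 12 and 123 counts against 149, 143 and 1157 (log2 FC 2.92 with SE 1.22, adjusted p = 0.117) and passed with the replicate block (log2 FC 2.72, adjusted p = 0.00845). Plg, the gene of plasminogen, was all but absent, with at most 2 counts in a library.

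**Figure D4:**
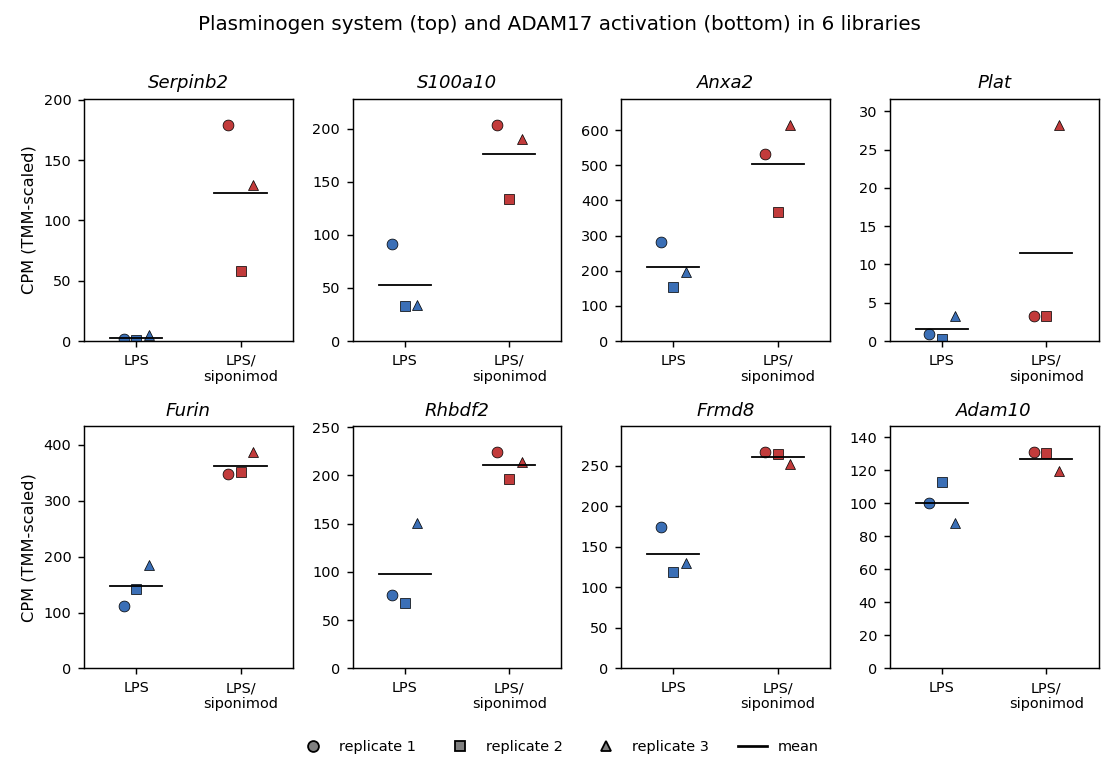
Normalised read counts (CPM, vertical axes from 0) in the 6 libraries for genes of the plasminogen system (upper panels) and for genes linked to ADAM17 activation together with Adam10 (lower panels), LPS in blue and LPS/siponimod in red, with the replicate number as symbol and the mean as a line. Serpinb2, S100a10, Anxa2, Furin, Rhbdf2 and Frmd8 do not overlap between the groups, and the mean of Plat with LPS/siponimod rests on replicate 3.

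Outside the 10 genes, a list of 17 other MMP genes was counted and 8 could be tested, of which 2 rose and 1 fell (median log2 FC -0.34). Of all genes tested, 13.6% rose and 11.7% fell. Besides Mmp10, Mmp17 (a membrane-type MMP) rose at low counts (9, 6 and 12 against 34, 24 and 34, log2 FC 1.53 with SE 0.43, adjusted p = 0.0439). It passed in 1 of the 6 fits that left out a library (largest adjusted p = 0.199, without LPS replicate 2). Its LPS libraries alone would not have met the count filter. Mmp24, another membrane-type gene, fell from 7.51 ± 1.32 to 2.33 ± 0.785 CPM (log2 FC -1.69 with SE 0.31, adjusted p = 0.0143). It passed in 4 of these 6 fits (largest adjusted p = 0.0724, without LPS/siponimod replicate 1). Mmp15 counts of 3, 5 and 301 against 0, 2 and 8 came almost entirely from LPS replicate 3 and were not tested. A further list of 7 genes held inhibitors and other modulators of metalloproteinases, not all of them inhibitors, and only Reck and Spock2 could be tested. Reck, which encodes a membrane-anchored inhibitor of several MMPs, fell (81, 134 and 153 counts against 32, 61 and 54, log2 FC -1.53 with SE 0.40, adjusted p = 0.0349). It did not pass in any of the 6 fits that left out a library (largest adjusted p = 0.129, without LPS replicate 2).

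In a chosen list of other ADAM genes, of which 6 were tested, Adam9 fell from 201 ± 50.7 to 70.3 ± 36.7 CPM (log2 FC -1.52 with SE 0.41, adjusted p = 0.0376) and none rose (median log2 FC of the list -0.25). Adam9 passed in 2 of the 6 fits that left out a library (largest adjusted p = 0.148, without LPS/siponimod replicate 1). Adam1a, tested outside the list, had a log2 FC of 0.72 (adjusted p = 0.208). In a chosen list of genes of the secreted ADAMTS family, of which 7 were tested, 1 fell, Adamts15 (109, 13 and 42 counts against 1, 8 and 6, log2 FC -3.64 with SE 1.02, adjusted p = 0.0422), which did not pass with the replicate block (adjusted p = 0.07) or in any fit without 1 library. Adamts4, which encodes an aggrecanase, had 477, 409 and 1775 counts against 263, 258 and 1234 (log2 FC -0.78, adjusted p = 0.527) and passed with the replicate block (-0.91, adjusted p = 0.0137) and without both libraries numbered 3 (-1.03, adjusted p = 0.0386), but in none of the 6 fits without a single library, and without LPS replicate 3 the sign turned (0.25, adjusted p = 0.831). The median of the list was -0.39. Adamts3, a family member left out of the list, also fell (from 3.48 to 0.369 CPM, log2 FC -3.23 with SE 0.65, adjusted p = 0.0179), and leaving out libraries was not run for it. Among 15 tested matrix components and ligands, Spp1 (osteopontin, a secreted phosphoprotein that MMPs and thrombin cleave) rose from a mean of 1422 ± 369 to 17661 ± 9633 CPM (log2 FC 3.63 with SE 0.49, adjusted p = 0.00769, passed in all 6 fits without 1 library), none fell and the median was 0.05. In total, 71 genes of the wider lists were tested, 11 rose and 7 fell, against 13.6% and 11.7% of all genes tested, and the median log2 FC was -0.20.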

How the data were processed

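Single-end mRNA libraries were made from 150 ng of total RNA. The authors demultiplexed reads with bcl2fastq (version 2.20.0.422, per the labels), trimmed and mapped them to the rat genome and counted them in the CLC Genomics Workbench. The deposited values are total read counts per gene without normalization. How multi-mapped reads and strand were handled is not given in the sources used here. One row without a name in 1 table held 0 counts and was left out.

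The tests used edgeR 4.0.16 under R 4.3.3: filterByExpr (minimum count 10, minimum total 15), TMM factors (0.939 to 1.06), and the quasi-likelihood test with condition alone in the model. The filter asks for its minimum count in as many libraries as a group holds. Genes low in either group could enter through the other, as Mmp10, Snap25 and Dcn did through LPS/siponimod and Adamts15 through LPS. P-values were adjusted by Benjamini-Hochberg over 11977 of 23139 genes, and a call needed an adjusted p no higher than 0.05 together with a 1.5-fold difference. CPM are scaled by TMM over the genes tested, pair differences are log2 CPM with a prior count of 2, and a standard error is the log2 FC divided by the square root of F. At the depths given above, CPM below 1 rest on few counts and intervals cover counting error only. Alternatives were RLE, DESeq2 (version 1.42.0), limma-voom (limma version 3.58.1), the likelihood ratio test, 2 other filters, glmTreat, a replicate block and leaving out libraries. The fit was tested on simulated data.

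Deviations from the group means of same-numbered libraries correlated at 0.42, 0.545 and 0.611 over genes, and those of other pairs between -0.534 and 0.086. The numbers were taken as pairing the libraries on this evidence.

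Named are the 10 genes, of each wider list up to 2 called genes per direction by adjusted p, and the most abundant gene of each cell type list over all libraries. Rhbdf1, Rhbdf2, S100a10, Anxa2, Mmp7, Plat, Plg, Adam10, Tnf, Mmp15, the chromosome 8 MMP genes, Syn1, Spock2, Adam1a, Adamts3, Adamts4, the overlapping genes, and the markers named beyond this rule were chosen after their values were seen, as were the motifs. The members and lists were chosen with earlier results of these data known. Promoters are from RefSeq (GRCr8), a build other than that of the counts. Timp2, Hspg2 and Cldn5 were not analysed here.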

Additional observations from a re-analysis of the deposited data

How the results depend on the processing

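Depth limits Adam8, Mmp3, Mmp10 and Mmp17, whose values rest on few counts, and 3 libraries per condition limit all calls. With 3 libraries a group, no library was tested as an outlier. Leaving out both libraries numbered 3 was chosen after seeing the data.

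Of the 10 genes, 2 were called higher with DESeq2 and with the likelihood ratio test (which called 32.5% and 29.8% of all genes), 1 with limma-voom (25.9%), 1 with the replicate block (34%), 1 without both libraries numbered 3 (which also called 2 lower, and 19.3% of all genes), and 0 or 1 without single libraries (5.16% to 30.3%). None was called lower under any other alternative. Plaur had a log2 FC of 1.21 (DESeq2, adjusted p = 0.0093), 1.27 (limma-voom, 0.0441), 1.20 (likelihood ratio test, 0.011), 1.26 (replicate block, 0.00676) and 1.41 (without both libraries numbered 3), and 0.96 to 1.62 without single libraries. It was called without LPS replicate 3 (1.62, adjusted p = 0.0197). Mmp12 had 2.48 (DESeq2, adjusted p = 0.00521), 2.46 (likelihood ratio test, 0.0136) and 2.02 to 3.29 without single libraries. Without both libraries numbered 3, Adam17 (-0.83) and Plau (-1.36) were called. The sign of Mmp3 turned with limma-voom (-0.33), with the replicate block (-0.30), without both libraries numbered 3 (-0.90) and without LPS replicate 2 (-0.10) or LPS/siponimod replicate 3 (-1.0), within -1.0 to 0.41. Mmp9 turned without LPS replicate 3 (0.18, within -1.39 to 0.18). Mmp13 turned without LPS replicate 3 (1.39, within -2.80 to 1.39) and without both libraries numbered 3 (0.55). The other genes kept their sign under every alternative in which they were tested: Mmp14 0.24 to 0.99, Timp1 -0.68 to -0.10, Adam8 -1.5 to -0.66, Adam17 -0.78 to -0.43 and Plau -0.98 to -0.29 without single libraries. Adam8 was not tested under the filter of a mean of at least 1 CPM. The replicate block changed no other call among the 10. The cause of these changes was not tested.

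Over all genes, 1633 higher and 1403 lower calls became 693 and 297 with glmTreat, and 469 to 1941 and 182 to 1772 without single libraries. In the wider lists, 11 and 7 became 5 and 2 with glmTreat, 2 to 12 and 0 to 7 without single libraries, and the lower calls became 3 without both libraries numbered 3. The log2 count ratio to Timp1 turned for Mmp3 without both libraries numbered 3 (-0.27; -0.47 to 0.47 without single libraries), for Mmp9 likewise (0.24; -0.73 to 0.58), and for Mmp13 without single libraries only (-0.94 to 1.87).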
